A study of Heliconius melpomene cythera and Heliconius melpomene rosina with 32 samples.

Results

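The difference between the sexes was examined in the anterior hindwing of the iridescent Ecuadorian butterfly Heliconius melpomene cythera at 70% of pupal development. The comparison was formed from the sample labels and held 4 of the 32 libraries of the series, from males 9 and 11 and from females 10 and 12. The libraries are RNA-seq of wing tissue from captive populations, and the values are the number of reads counted per gene or assembled locus. The anterior hindwing was dissected apart from the remaining wing, and is the androconial region, which carries another type of scale. It was set beside the forewing and posterior hindwing of the same 4 cythera animals, beside the anterior hindwing of 4 individuals of the matt black Panamanian subspecies rosina at 70% (13, 14, 15 and 16), and beside the anterior hindwing at 50% development. At 50% there were 2 males and 2 females of each subspecies, which were cythera males 2 and 4 and females 1 and 3, and rosina males 5 and 7 and females 6 and 8. All 4 rosina individuals at 70% were labelled male, so at that stage rosina gives no comparison of the sexes of its own. The study's methods state that a rosina individual had been wrongly labelled, but do not number it, and all individuals were kept here under their labels.

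In butterflies the female carries the unlike pair of sex chromosomes, Z and W, and the male carries a pair of Z chromosomes. Loci on the W are thus read in females alone, and genes on the Z can be read at higher levels in males. Androconia are the scent scales of male butterflies, which in Heliconius lie where the forewing and hindwing overlap and are used in courtship. The scales of the pupal wing form and harden during the second part of development, and the later stage is when the cuticle and pigment of the scale are laid down.

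The count table names loci by assembly number (MSTRG) and, where one overlaps a known gene, by an annotated ID that starts with HMEL. None of these IDs was found in the gene table at hand. Chromosome, gene name and function are therefore not given, the tissue could not be checked against marker genes, and no sequence is shown. A small group of rows carries hand-given names of detoxification enzymes and chemosensory receptors.

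Total counts ranged from 21141907 to 31901484 in the 4 libraries compared, and from 20151439 to 45570497 over all 32. A locus with no counts in a library of the comparison could still stand at up to 0.103 to 0.141 CPM, the level that 3 counts give, and this limit covers counting error only. CPM is the count scaled to library size, here with TMM factors over all libraries. The sex labels were checked with 18 loci that separated the sexes at 50%, 12 of them higher in females and 6 higher in males. At 70%, 11 of the 12 female loci separated the 2 females from all 6 males of both subspecies, and none of the 6 male loci did. The 11 were picked by that separation, so they could not place a library against its label. Of the male loci, MSTRG.20855, MSTRG.20197, MSTRG.10091 and MSTRG.25941 were high at 70% in cythera female 10 and rosina male 14 alone. MSTRG.4004 (HMEL003479g2) had both cythera females above all 6 males, at 14.4 and 31.7 CPM against at most 5.56 CPM. For MSTRG.20695 (HMEL001028), rosina male 16 at 9.47 CPM lay between females 10 and 12, at 9.67 and 4.97 CPM. The remaining female locus, MSTRG.13632 (HMEL009627g2), overlapped between the sexes at 70%, with rosina male 16 at 2.72 CPM above females 10 and 12 at 0.548 and 1.1 CPM.

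Few loci passed the test of sex in the cythera anterior hindwing. Of 12967 genes tested, 2 were DE at an FDR under 0.05 (0.0154%), both higher in females, and no gene was called higher in males. At an unadjusted p under 0.05 there were 913 genes, of which 385 were higher in males (2.97%) and 528 higher in females (4.07%). With 2 animals of each sex, 2330 genes were higher in both males than in both females (18%) and 2642 genes were higher in both females (20.4%). DESeq2 called 303 genes, 121 of them higher in males and 182 in females, and when any 1 of the 4 animals was left out edgeR called 0, with 655 to 1155 genes at an unadjusted p under 0.05.

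The first of the called loci, MSTRG.20567, carries no annotated ID. It had 3071 counts in female 10 and 2881 in female 12, against 2 in male 9 and 1 in male 11. The sexes were far apart, at 106 ± 9 CPM in females and 0.0648 ± 0.0417 CPM in males (SD, n = 2 each). The ratio of the pooled levels was 1740, with an exact 95% interval from counting error of 596 to 8460. In edgeR the difference passed the test (log2 fold change of males over females -10.63, SE 0.405, FDR 0.0307). A fitted fold change of a locus with so few counts in one sex depends on the prior count.

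The same split was found in every other animal. In the forewing and posterior hindwing, MSTRG.20567 had 1780 and 2209 counts in females 10 and 12, against 1 and 2 in males 9 and 11, and it was called there too (FDR 0.0341). The 4 rosina males at 70% had 3, 8, 4 and 7 counts in the anterior hindwing. At 50% the 4 males had 4 to 21 counts and the 4 females 2647 to 5455, again with a call (log2 fold change -8.35, SE 0.412, FDR 0.00196). No male of either stage came near the lowest female.

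MSTRG.20286, MSTRG.4824 and MSTRG.4827 followed the same order but did not pass the test at 70%. MSTRG.20286 had 3358 and 2991 counts in females 10 and 12, against 1 and 7 in males 9 and 11 (FDR 0.102). MSTRG.4824 had 2713 and 2561 counts in the females and 0 in both males (FDR 0.0647), which makes it at least 758-fold higher in females against a limit of 3 counts per male library. MSTRG.4827 had 2433 and 1983 counts in the females and 0 in both males (FDR 0.102), at least 636-fold higher. These 3 loci, none with an annotated ID, were each called in the 8 libraries of the earlier stage, with FDRs of 0.0102, 0.00475 and 0.00475. The rosina males at 70% had at most 9 counts of any of them in the anterior hindwing.

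MSTRG.16221 and MSTRG.3170, named after their values were seen, were read at lower levels in the same manner. MSTRG.16221 had 787 and 865 counts in the females and 12 and 4 in the males, and was called in the forewing and posterior hindwing (FDR 0.0341) but not in the anterior hindwing (FDR 0.257). MSTRG.3170 had 528 and 546 counts in the females and 0 and 5 in the males (FDR 0.257). The levels of these loci in the 6 females of both stages lay close together, as the plot of the female loci shows.

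The other called locus did not follow sex in other animals. MSTRG.7324, also without an annotated ID, had 943 and 963 counts in females 10 and 12, against 8 and 10 in males 9 and 11. That is 33.8 ± 0.853 CPM in females and 0.365 ± 0.0172 CPM in males (SD, n = 2 each), a 92.6-fold difference with close replicates (log2 fold change -6.5, SE 0.237, FDR 0.0307). In the forewing and posterior hindwing of these animals it had 617 and 939 counts in the females and 32 and 8 in the males (FDR 0.559).

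Among the rosina males at 70%, MSTRG.7324 had 32 counts in individual 13 and 523, 804 and 743 in individuals 14, 15 and 16. Rosina males 14 to 16 thus lay near the cythera females, and rosina male 13 near the cythera males. At 50% the males had 4, 1023, 820 and 939 counts and the females 5, 2167, 453 and 862, in the order cythera then rosina, so that 1 animal of each sex was low and the sexes overlapped (FDR 0.991). The 2 low animals at 50% were cythera male 2 and cythera female 1.

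MSTRG.17973 showed the mirror image at the later stage only. It had 153 and 387 counts in cythera males 9 and 11 and 1 and 0 in the females, a ratio of pooled levels of 614 with an exact 95% counting interval of 110 to 24300, and did not pass the test (log2 fold change 8.87, SE 0.936, FDR 0.257). The rosina males had 126 counts in individual 13 and 0, 1 and 0 in the others. Individual 13 stood apart from the other rosina males for both loci, on the side of the cythera males. At the earlier stage MSTRG.17973 had 1786 and 758 counts in the cythera males and 49 and 90 in the cythera females. The rosina males of that stage had 1 and 1 counts and the rosina females 6 and 1, so all cythera animals lay above all rosina animals. The cythera male with 758 counts had 1023 of MSTRG.7324, and was thus high for both loci.

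Loci read in only 1 sex were then counted. There were 137 loci with more than 3 counts in both females and at most 3 in both males (1.06% of the genes tested), and 46 with the reverse (0.355%). The filter on low counts admits such loci through the sex in which they are read. Their levels were low, with a median of 0.88 CPM in females for the first group and 1.02 CPM in males for the second. An annotated ID was carried by 34 of the 137 female loci and by 17 of the 46 male loci.

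Of the 137 female loci, 81 met the same counts in the forewing and posterior hindwing of these animals, which are not independent of the anterior hindwing. In other animals, 52 had at most 3 counts in all 4 rosina males at 70%, 54 had at most 3 in all 4 males at 50%, and 68 had more than 3 in all 4 females at 50%. All 3 of the counts in other animals were met by 22 loci, 2 of them with an annotated ID. The shares of all genes tested that meet these counts were not computed. The numbers are thus a description and no measure of agreement with sex. MSTRG.18044 was the most abundant of the 22, with 220 and 164 counts in females 10 and 12 and 0 in males 9 and 11. It had 0 counts in all rosina males at 70% and 181 to 351 in the females at 50%.

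Of the 46 male loci, 20 met the counts in the forewing and posterior hindwing, 12 had more than 3 counts in all 4 rosina males, 9 had more than 3 in all males at 50% and 14 had at most 3 in all females at 50%. Here too the shares over all genes tested were not computed. The 2 loci that met all 3 of the counts in other animals were MSTRG.24995 and MSTRG.24888, and MSTRG.24995 alone also met those in the forewing and posterior hindwing. MSTRG.24995 had 47 and 29 counts in males 9 and 11, 0 and 2 in the females, 49 to 101 in the rosina males, and at 50% 9 to 23 in males and 0 in females. MSTRG.24888 had 8 and 15 counts in the males and 0 in both females, and 16 to 23 in the rosina males. Neither passed the test at 70% (FDR 0.598 and 0.622).

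Several of the most abundant loci limited to 1 sex did not keep to it elsewhere. MSTRG.20926 (HMEL006748g1) had 501 and 274 counts in the cythera females and 0 in both males, but at 50% it had 17 to 190 counts in females and 0 to 23 in males. MSTRG.17149 (HMEL011264g1 and HMEL032617g1) had 116 and 207 counts in males 9 and 11 and 0 in both females, yet 8, 0, 0 and 0 in the rosina males and 0 in every male at 50%. MSTRG.22650 (HMEL006290g1) had 302 and 115 counts in the males and 0 in the females, and at most 11 in the rosina males. MSTRG.6326 (HMEL005366g1 and HMEL005366g2) was read mainly in male 11, with 362 counts against 12 in male 9 and 0 in both females.

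Across all 16 anterior hindwing libraries, 71 of the genes tested were higher in each of the 6 females than in each of the 10 males (0.548%), and 12 were higher in each male than in each female (0.0925%). The female loci differed widely at 70%, with a median log2 fold change of -5.72, and 10 of the 71 carried an annotated ID. The male loci differed less, with a median of 0.865, and 8 of the 12 were annotated. Over all genes tested the median was -0.003, but the signs of the female and male medians follow from how the loci were chosen. In the forewing and posterior hindwing of the same animals, 57 of the female loci and 3 of the male loci separated the sexes as well. The share of all genes tested that did so in that region alone is not given, and both regions came from the same animals. These counts are a description. No male locus passed the test at 70% (smallest FDR 0.492).

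MSTRG.25367 (HMEL016639g1) had the highest levels of these 12 male loci. It stood at 223 and 216 CPM in males 9 and 11 and at 94.2 and 126 CPM in females 10 and 12, a 2-fold difference (log2 fold change 1.02, SE 0.217, FDR 0.495). The rosina males at 70% lay between 169 and 198 CPM. MSTRG.25188 (HMEL002816g1 and HMEL002817g1) stood at 24.03 and 42.4 CPM in the males and 12.8 and 13.8 CPM in the females, and the lowest rosina male had 16.9 CPM. It is 1 of the 3 that also separated the sexes in the other region.

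**Figure D1:**
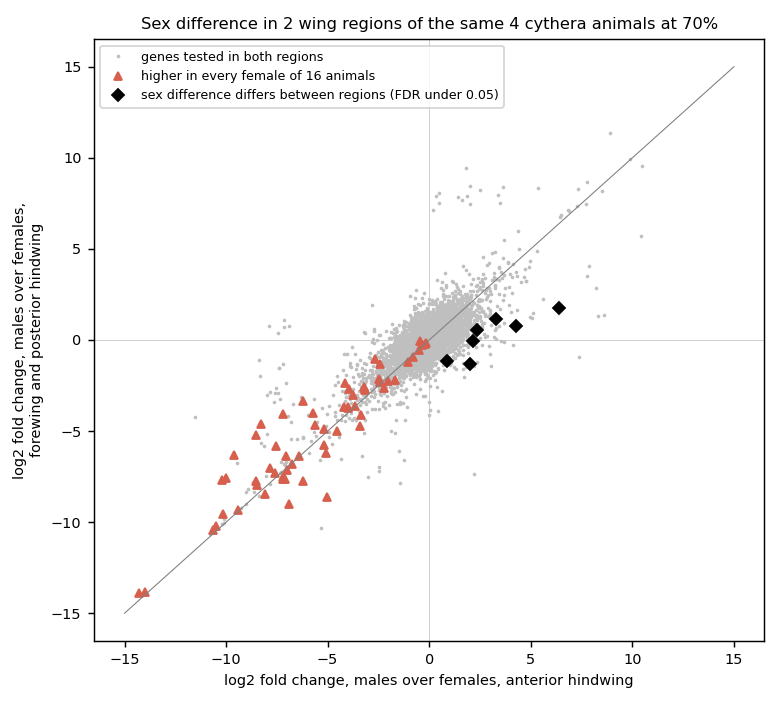
Log2 fold change of males over females in the anterior hindwing (x axis) against that in the forewing and posterior hindwing (y axis) of the same 4 cythera animals at 70%, for 12341 genes tested in both regions, with equal values on the diagonal. The 61 plotted loci that were higher in every female of the 16 animals (red triangles) lie left of 0, and the 7 genes whose sex difference differed between regions (black diamonds) lie to the right of and below the diagonal. Both positions follow from how the sets were chosen.

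By edgeR, the sex difference depended on the wing region for a small group of annotated genes. In a test of the sex by region term with individual as a block, 7 of 14770 genes were called (0.0474%). In all of them the difference of males over females was greater in the anterior hindwing. DESeq2 also called 5 of these 7 and gave no FDR for MSTRG.2365 and MSTRG.19893. Without the block edgeR called no term, and the calls also moved when an animal was left out. For 6 of the 7 genes, MSTRG.3107 being the exception, both males had higher levels in the anterior hindwing than in the remaining wing, and the females had nearly level or lower values. In the forewing and posterior hindwing taken alone, 2 of 13014 genes were called for sex (0.0154%), the loci MSTRG.20567 and MSTRG.16221 described above.

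MSTRG.15067 (HMEL031854g1) was among the most abundant transcripts of the late wing. It stood at 13350 and 25940 CPM in the anterior hindwing of males 9 and 11 and at 2279 and 1816 CPM in females 10 and 12. In the forewing and posterior hindwing it stood at 4542 and 8292 CPM in the males and 3059 and 2695 CPM in the females. The males were thus 2.94- and 3.13-fold higher in the anterior hindwing than in their other wing tissue, against 0.745- and 0.674-fold in the females (sex by region log2 difference 2.14, SE 0.123, FDR 0.00189). The sexes did not overlap in either region, but the sex difference within the anterior hindwing did not pass (9.56-fold, FDR 0.293).

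MSTRG.2365 (HMEL008316g1) had the widest region term of the 7 called genes. Its levels were 13.5 and 125 CPM in the anterior hindwing of males 9 and 11, against 0.803 and 0.862 CPM in the females. In the other wing tissue the males had 1.4 and 8.52 CPM and the females 1.61 and 1.35 CPM, and there the sexes overlapped. Although the males differed widely from each other, their ratio between regions was alike, at 9.64 and 14.7, while in the females it was 0.499 and 0.641 (log2 difference 4.51, SE 0.333, FDR 0.00769).

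MSTRG.18823 (HMEL011699g1 and HMEL011701g1) had 867 and 604 CPM in the anterior hindwing of the males and 154 and 177 CPM in that of the females. In the other wing tissue it had 171 and 155 CPM in the males and 186 and 155 CPM in the females, so that the sexes were apart in 1 region and overlapped in the other (log2 difference 2.23, SE 0.207, FDR 0.0223). MSTRG.3041 (HMEL011685g2) had 197 and 229 CPM in the males and 49.6 and 33.9 CPM in the females in the anterior hindwing, and 47.2 and 52.1 against 37.6 and 30.04 CPM elsewhere (log2 difference 1.85, SE 0.159, FDR 0.0168). In both genes the females had much the same level in each wing region, within 1.32-fold.

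In the other called genes the sexes were less clearly apart. MSTRG.14637 (HMEL011479g1) had 196 and 80.6 CPM in the anterior hindwing of the males and 72.3 and 80.6 CPM in that of the females, while elsewhere the males had 57.1 and 16.3 CPM and the females 71.7 and 92.3 CPM (log2 difference 2.17, SE 0.21, FDR 0.0233). MSTRG.19893 (HMEL005611g1, HMEL005612g1 and HMEL005612g2) had 47.5 and 2.68 CPM in the males and 0.475 and 2.17 CPM in the females (log2 difference 3.39, SE 0.32, FDR 0.0223). MSTRG.3107 (HMEL033428g1 and HMEL033431g1) owed its term to the females, which had 6.86 and 11.2 CPM in the anterior hindwing and 79.3 and 128 CPM elsewhere, while each male had nearly the same level in both (log2 difference 3.36, SE 0.161, FDR 0.000981).

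For 6 of the 7 genes, all 4 rosina males had a higher ratio between regions than both cythera females. Their anterior hindwing was 1.63- to 3.52-fold above the other wing tissue for MSTRG.15067, 6.7- to 18.7-fold for MSTRG.2365, 5.88- to 12.6-fold for MSTRG.18823, 3.31- to 4.75-fold for MSTRG.3041 and 1.84- to 4.48-fold for MSTRG.14637. For each of these 5 genes, all 6 males exceeded both females in the ratio. For cythera males 9 and 11 that order follows from how the genes were chosen. The share of all genes tested with all 4 rosina ratios above both females was not computed, so the counts are a description. All 6 males also exceeded both females for MSTRG.3107, with rosina ratios of 0.174 to 1.22 against 0.0865 and 0.0875 in females 10 and 12. There rosina male 16, at 0.174, lay nearer to these females than to cythera males 9 and 11, at 0.868 and 0.873. MSTRG.19893 did not follow, since rosina male 15 had 0 counts in the anterior hindwing. In the other direction, with the difference of females over males greater in the anterior hindwing, edgeR called no term, and the smallest FDR was 0.0589, for MSTRG.22175 (HMEL010663g1). That gene passed with DESeq2 (FDR 0.000319), RLE size factors (0.0471), no filter (0.00247), the newer fit (0.0249) and robust dispersion (0.0365). It did not pass with no replicate block, where no term was called, and was not tested with 10 counts required in every library. Male 11 had 0 counts in the anterior hindwing and 7 elsewhere, against 120 and 650 in male 9. The log2 difference was -2.66, but -6.29 without male 9 and -2.54 without female 10. DESeq2 called 40 terms in the first direction and 75 in the other.

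**Figure D2:**
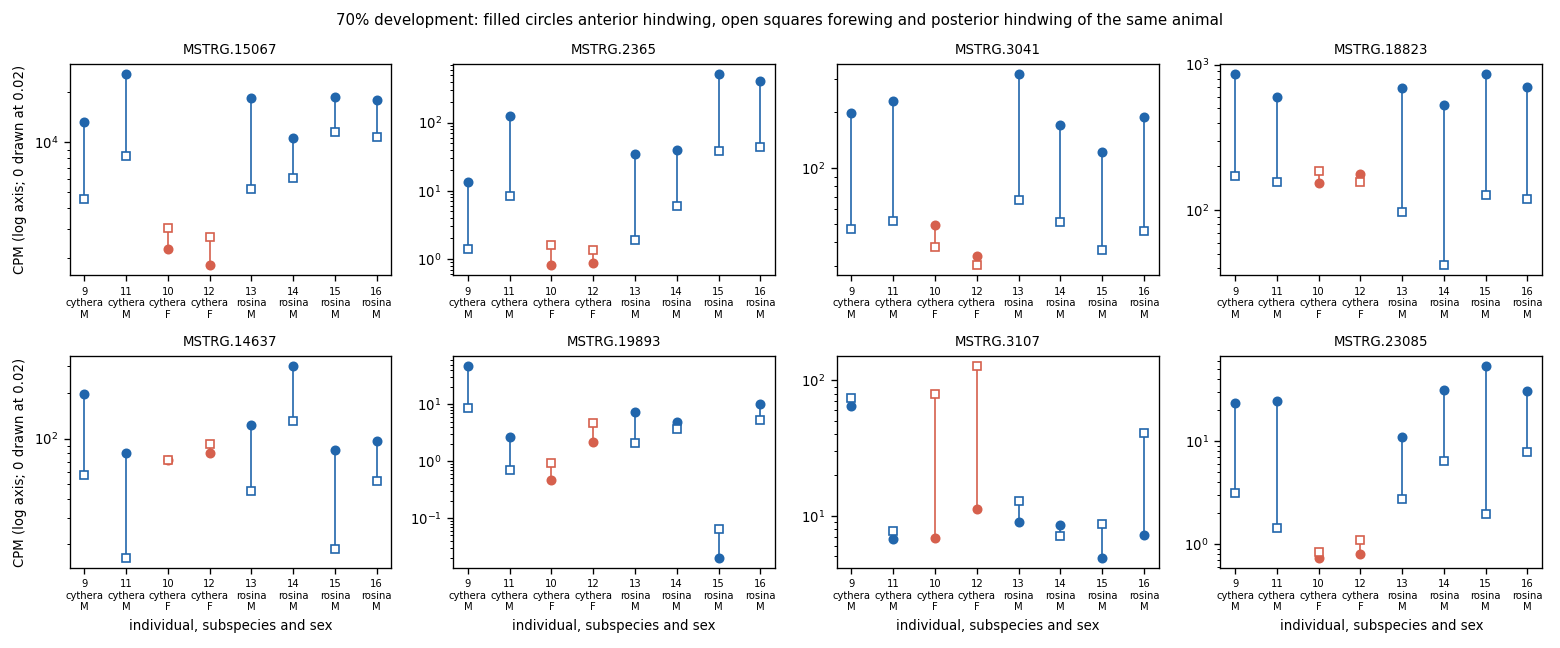
Level in CPM (log axis) at 70% in the anterior hindwing (filled circles) and in the forewing and posterior hindwing (open squares) of the same animal, joined by a line, for the 7 genes called for the sex by region term and for MSTRG.23085, with individual, subspecies and sex on the x axis (males blue, females red). In MSTRG.15067, MSTRG.2365, MSTRG.3041, MSTRG.18823 and MSTRG.14637 the circle lies above the square in all 6 males, and the females show a shorter line or a reversed order.

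None of the genes higher in males passed the test of sex in the anterior hindwing. Of the 8 with the smallest p, some were higher in the male anterior hindwing than in the other wing tissue, and others had like levels in both. None of the 8 passed for the region term. MSTRG.23085 (HMEL015732g1) had 491 and 696 counts in males 9 and 11 and 20 and 23 in females 10 and 12. Its levels of 23.8 ± 0.997 CPM in males and 0.762 ± 0.0447 CPM in females (SD, n = 2 each) were 31.2-fold apart (log2 fold change 4.98, SE 0.236, FDR 0.0543). In the other wing tissue the males had 3.14 and 1.43 CPM and the females 0.8291 and 1.09 CPM, and the region term missed the threshold (FDR 0.0984). The rosina males had 10.9 to 53.4 CPM in the anterior hindwing, all above the cythera females.

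MSTRG.12793 (HMEL006348g1) was 4.02-fold higher in males, at 24.7 and 25.01 CPM against 5.73 and 6.66 CPM in females (FDR 0.257). MSTRG.21883 (HMEL034515g1) was 3.52-fold higher, at 22.8 and 20.9 CPM against 6.17 and 6.21 CPM (FDR 0.257). For both genes the 4 rosina males lay above the cythera females. MSTRG.577 (HMEL003764g1, HMEL008044g1 and HMEL030014g1) was 7.85-fold higher, at 16.4 and 23 CPM against 2.19 and 2.83 CPM (FDR 0.257), with rosina males at 6.6 to 14.3 CPM. MSTRG.1208 (HMEL017210g1) was 5.21-fold higher in cythera males in the anterior hindwing (FDR 0.257) and at like levels in both wing regions, but rosina males 15 and 16 had 3.46 and 5.56 CPM, below the cythera females at 15.2 and 18.7 CPM.

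MSTRG.11557 (HMEL015914) was read mainly in the male anterior hindwing of the late stage. It had 2549 and 1167 counts in males 9 and 11 and 4 and 12 in females 10 and 12, or 80.6 ± 55.8 CPM against 0.28 ± 0.189 CPM (SD, n = 2 each). The 288-fold difference did not pass the test (log2 fold change 8.16, SE 0.88, FDR 0.257). In the other wing tissue the males had 52 and 7 counts and the females 0, and the rosina males had 800 to 7975 counts in the anterior hindwing and 10 to 41 elsewhere. At 50% it had 4 to 30 counts in males and 4 to 216 in females, and the sexes overlapped. MSTRG.16413 (HMEL014585g1) had 227 and 834 counts in males 9 and 11 and 0 in both females, at least 188-fold higher in males against the limit of 3 counts per library (FDR 0.283), and 75 to 1239 counts in the rosina males.

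A locus with a nearby assembly number, MSTRG.11565 (HMEL015921g1), had its male reads at the earlier stage. It was named after its values were seen, as were MSTRG.11567, MSTRG.23325 and MSTRG.16691. At 50% it had 3485, 11216, 4998 and 4561 counts in the 4 males and 0 in all 4 females, which did not pass the test (FDR 0.0639). At 70% it had 0 and 17 counts in cythera males 9 and 11, 0 in both females and 0 to 12 in the rosina males. MSTRG.11567 (HMEL015924) had 317 to 5721 counts in the males at 50% and 0 to 15 in the females, and at 70% 6 and 8 in the cythera males and 0 in the females.

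MSTRG.23325 (HMEL005562g1) was higher in males at both stages. At 70% it had 1464 and 5741 counts in males 9 and 11 and 216 and 246 in the females (16.6-fold, FDR 0.312), and 1537 to 12097 in the rosina males. At 50% it had 149 to 748 counts in males and 0 to 15 in females (FDR 0.11). The sexes did not overlap within either stage, but the cythera females at 70% reached the range of the males at 50%. In all 6 males at 70% its level in the anterior hindwing was 3.29- to 6.9-fold that in the other wing tissue, against 1.05 and 1.87 in females 10 and 12.

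**Figure D3:**
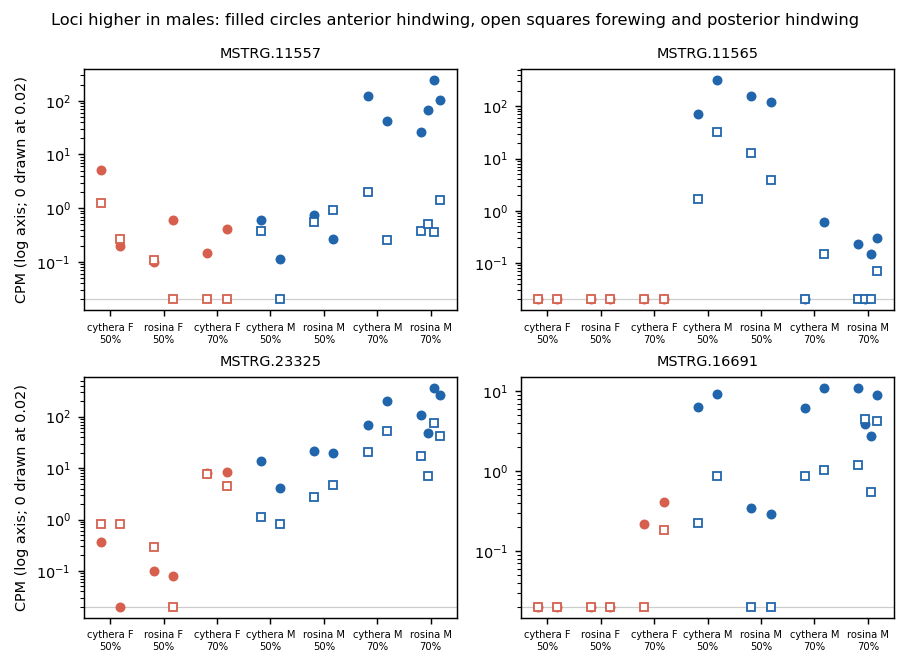
Level in CPM (log axis) of 4 loci higher in males, in the anterior hindwing (filled circles) and in the forewing and posterior hindwing (open squares), with 1 point per animal, grouped by subspecies, sex and stage, females (F) red, males (M) blue and counts of 0 on the grey line. MSTRG.11557 is high in the anterior hindwing of all 6 males at 70% alone, MSTRG.11565 in that of all 4 males at 50% alone, and MSTRG.23325 in males of both stages.

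Taking the genes with an unadjusted p under 0.05, all 4 rosina males at 70% lay on the male side of the midpoint between the cythera sexes for 38.3% and on the female side for 7.78%. Among all 4972 genes whose cythera sexes did not overlap, these shares were 23.6% and 10.2%. The share on the male side was 42.8% for genes higher in cythera females and 32.2% for genes higher in cythera males. Among genes whose cythera sexes did not overlap these shares were 27.6% and 19.1%, so the directions differed there as well. Of the 2 called loci, MSTRG.20567 had all 4 rosina males on the male side and MSTRG.7324 had individual 13 alone there. Without individual 13, the share on the male side was 48%. In rosina at 70%, subspecies and sex cannot be told apart, and no test was made.

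The comparison with the earlier stage used other animals. At 50%, sex was tested in 8 anterior hindwing libraries with a term for subspecies, and 21 of 16852 genes were called (0.125%), 9 higher in males and 12 in females. Of the genes tested at both stages, 51.9% had the same sign. The share was 55.9% for genes higher in males at an unadjusted p under 0.05 at 70%, and 58.9% for those higher in females. The sexes also did not overlap at 50%, in the same direction, for 7.02% of these male genes and 16.4% of these female genes, against 3.59% of all. With sex by stage tested in cythera alone, edgeR called 0 of 15838 genes (0%), with 894 at an unadjusted p under 0.05, and DESeq2 called 221.

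The smallest p-values for the stage term were for MSTRG.6289 (HMEL016763g1), MSTRG.22977 (HMEL004295g1) and MSTRG.8227 (HMEL037647g1), each at an FDR of 0.271. MSTRG.22977 had 344 and 378 counts in females 10 and 12 at 70% and 14 and 18 in males 9 and 11 (19.8-fold, FDR 0.12). In cythera at 50%, the animals of the stage term, it stood at 18.6 and 25.9 CPM in males and 14.9 and 7.7 CPM in females, with the males higher and no overlap. MSTRG.8227 had 395 and 413 counts in the females at 70% and 28 and 43 in the males (10.1-fold, FDR 0.171), and in cythera at 50% the males were higher, at 1.51 and 1.66 CPM against 0.431 and 0.703 CPM. The rosina males had 6 to 75 counts of the first and 17 to 108 of the second, below both cythera females. MSTRG.6289 had 65 and 71 counts in the females and 4 and 7 in the males. The males were again higher in cythera at 50%, at 18.7 and 15.3 CPM against 10.4 and 12.4 CPM in females. Choosing genes by the stage term favours such a change of order in these animals. In rosina at 50% the sexes overlapped for MSTRG.22977, at 8.17 and 16.2 CPM in males and 9.49 and 7.81 CPM in females. The rosina sexes overlapped for MSTRG.6289 too, and for MSTRG.8227 the rosina males were higher.

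Of the stage terms in the other direction, MSTRG.6719 (HMEL037183g1), MSTRG.21290 (HMEL016216g1) and MSTRG.2024 (HMEL033140g1) came first, with FDRs of 0.351, 0.351 and 0.357. MSTRG.6719 had 69 and 162 counts in cythera males 9 and 11 and 0 in both females. It had 219 counts in rosina male 13, however, and 0 in the other rosina males. In the forewing and posterior hindwing those other rosina males had 0, 239 and 159 counts. At 50%, both cythera males and a cythera female had 460, 200 and 260 counts in the anterior hindwing and 0 elsewhere. A rosina female had 0 and 181. The remaining animals had reads in both regions or in neither. A count of 0 for this locus in a library thus does not show absence from the animal, and the cause was not tested. MSTRG.2024 was 2.64-fold higher in males at 70%, at 41.5 and 33.5 CPM against 15 and 13.3 CPM (FDR 0.294). In cythera at 50% the females were higher, at 25.8 and 34.4 CPM against 13.04 and 8.67 CPM, an order favoured by the choice of genes. The rosina females at 50% were higher too, at 7.24 and 8.55 CPM against 6.53 and 3.09 CPM.

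Of the loci called higher in males at 50%, 4 behaved as a set at the later stage. MSTRG.20855, MSTRG.20197, MSTRG.10091 and MSTRG.25941, none with an annotated ID, had 344 to 1016 counts in the 4 males at 50% and 10 to 48 in the 4 females. At 70% cythera female 10 had 842, 438, 460 and 442 counts of them, in that order, and rosina male 14 had 636, 454, 729 and 449. All other animals at 70%, males 9 and 11 included, had 0 to 73 counts. The forewing and posterior hindwing gave the same order, with 245 to 443 counts in female 10, 293 to 451 in male 14 and at most 79 in the others. No sex difference passed the test for them at 70% (FDR 0.719 to 0.799). For the 11 female loci of the sex label check that separated the sexes at 70%, female 10 and male 14 lay with their labelled sex. That follows from how the 11 were picked.

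**Figure D4:**
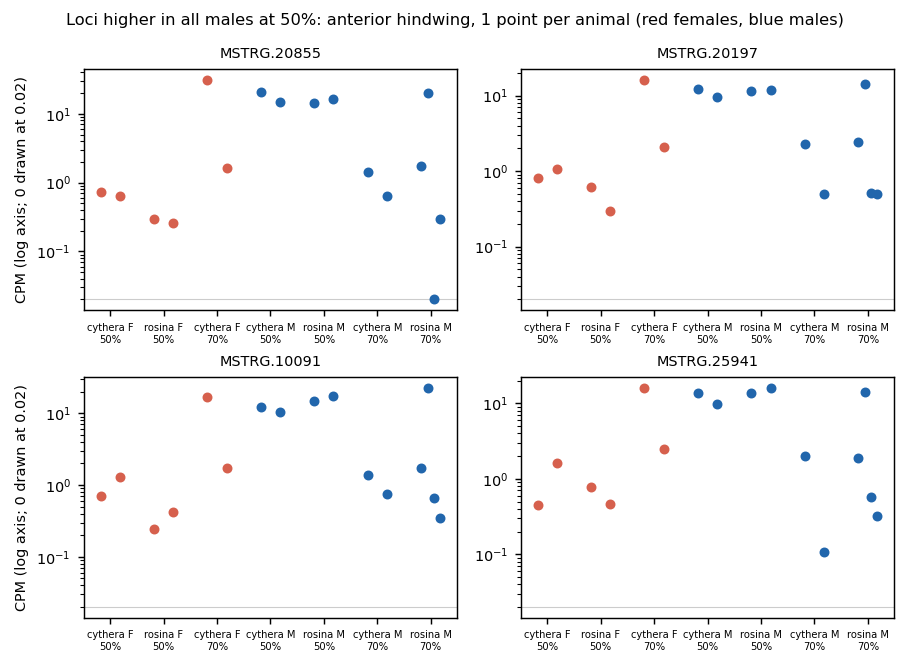
Level in CPM (log axis) in the anterior hindwing of 4 loci that were called higher in males at 50%, with 1 point per animal, grouped by subspecies, sex and stage, females (F) red, males (M) blue and counts of 0 on the grey line. All 4 males at 50% are high, and at 70% the high points are cythera female 10 and rosina male 14.

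By kind of ID, 3804 of the genes tested carried no annotated ID and 9163 carried one. Both called loci were among those without one, of which 68 were higher in males and 208 in females at an unadjusted p under 0.05. Among annotated genes 317 were higher in males and 320 in females at that p. The excess of female loci at that level was thus found in loci without an annotated ID, whose median log2 fold change was -0.132, against 0.022 for annotated genes.

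Of 188 rows with hand-given names, 46 were tested, with 5 higher in males and 1 in females at an unadjusted p under 0.05. That is 13% of them, against 7.04% of all genes tested. Their smallest FDR was 0.353, and their median log2 fold change was 0.193, against -0.003 over all genes. HmIR25a_1, an ionotropic receptor by its name, the family of insect chemosensory channels in which IR25a is a widely expressed co-receptor, had 214 and 198 CPM in males 9 and 11 and 98.05 and 103 CPM in the females (2.06-fold, log2 fold change 1.06, SE 0.176, FDR 0.353). Its row, MSTRG.20800, also carries HMEL014199g1, and whether both IDs are the same gene could not be checked. The rosina males had 189 to 227 CPM, above both cythera females. In the other wing tissue the cythera males had 166 and 131 CPM and the females 112 and 99.7 CPM.

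Glutathione transferases join glutathione to reactive compounds, and UDP-glycosyltransferases join sugars to small lipophilic molecules, pigments among them. HmelGSTe3 stood at 6.31 and 24.97 CPM in males and 0.986 and 1.69 CPM in females (log2 fold change 3.57, SE 0.804, FDR 0.519), but 3 of the 4 rosina males had 1.59 to 2.32 CPM. HmelGSTe2 stood at 12.1 and 88.1 CPM in males and 4.09 and 7.21 CPM in females (FDR 0.647), and all rosina males had 85.1 to 141 CPM. HmelUGT40U1 stood at 3.86 and 15.1 CPM in males and 1.13 and 2.28 CPM in females (FDR 0.646), and rosina males 14, 15 and 16 had 1.93 to 2.47 CPM, against 18.3 CPM in rosina male 13. HmelGSTo4 was the only one of the 6 higher in females, at 24.8 and 22.7 CPM against 13.01 and 15.9 CPM in males (FDR 0.608). None of the 4 gustatory receptors tested reached an unadjusted p under 0.05, and of 16 UDP-glycosyltransferases 2 did, both higher in males (12.5%, against 7.04% of all genes tested in either direction).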

How the data were processed

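RNA-seq libraries of pupal wing tissue were grouped by subspecies, stage, wing region and sex from the labels, and each library of a group came from a separate individual. The authors trimmed and aligned the reads and deposited raw counts per gene or assembled locus, without normalization. The submitters' processing notes list Trimmomatic 0.38, HISAT2 2.1.0, SAMtools 1.9, StringTie 1.3.5 and edgeR. The genome build, the annotation, the strand setting of the counting and the treatment of reads shared by similar or overlapping genes are not given in the sources used here, so such genes may share reads. None of the row IDs matched the 15508 genes of the RefSeq table (0 IDs). No column went unused (0). The H. erato libraries were not analysed here.

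Tests used edgeR 4.0.16 under R 4.3.3, with DESeq2 1.42.0 and limma 3.58.1 for alternatives. Python 3.11.15 with matplotlib 3.10.9 made the figures. Low counts were filtered with filterByExpr (minimum count 10), libraries were normalized by TMM, and the two-sided quasi-likelihood F-test was run in its earlier form without robust dispersions. P-values were adjusted over all genes tested in each comparison by Benjamini and Hochberg's method (FDR), and DE means an FDR under 0.05. Positive values mean higher expression in males. CPM was computed with TMM factors from 20944 rows over all libraries. Folds against a sex with no counts are lower bounds against 3 counts per library, and ratios against 1 to 3 counts have exact 95% intervals. The tests were also tried on simulated data.

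The region term had individual as a block, since by the labels both libraries of a number are of 1 animal. Deviations of the 2 libraries from their group means correlated at 0.771 for the males and 0.816 for the females. In groups of 2 the deviations mirror each other, so these are 2 values and not 4. No library appeared to be deposited under more than 1 name, since within groups the pair of libraries most alike had a chi-square of 102 per degree of freedom. A depth of 21141907 to 31901484 counts limits what can be seen of loci under about 3 counts.

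The genes named are the 8 in each direction with the smallest p whose sexes did not overlap, the 4 most abundant loci limited to each sex, the 4 and 3 smallest p in each direction for the region and stage terms, the loci of the sex label check, called genes outside these, and MSTRG.11557. Others were named after their values were seen. The members, lists and rules were chosen with earlier results of these data known. Alternatives were DESeq2, other size factors, filters and dispersions, other sets of libraries, and each individual left out.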

Additional observations from a re-analysis of the deposited data

Results flagged for a closer look

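In the anterior hindwing of the 4 rosina males at 70%, individual 13 stood apart from the other 3 for MSTRG.7324, at 1.059 CPM against 16.32 to 24.22 CPM, and for MSTRG.17973, at 4.169 CPM against 0 to 0.03012 CPM. Individual 14 stood apart for MSTRG.15067, at 10690 CPM against 18090 to 18840 CPM. These 3 were found among 20 groups of 4 libraries examined for a single distant sample, where chance gives about 1 in 20. The study's methods state that a rosina individual was wrongly labelled without giving its number, and whether individual 13 is that animal was not tested.

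For 7 genes the sex difference in cythera at 70% differed between wing regions by the interaction term in edgeR. The log2 differences, positive where males over females was greater in the anterior hindwing, were 3.36 for MSTRG.3107, 2.14 for MSTRG.15067, 4.51 for MSTRG.2365, 1.85 for MSTRG.3041, 2.23 for MSTRG.18823, 3.39 for MSTRG.19893 and 2.17 for MSTRG.14637.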

How the results depend on the processing

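With 2 animals of each sex, the number of calls moved with the test and the animals. In the anterior hindwing at 70%, the 2 calls became 303 with DESeq2, 10 with no filter, 0 with 10 counts in every library (733 at an unadjusted p under 0.05) and 6 with the newer quasi-likelihood fit. They became 1 with 8 libraries and 10 with 16 libraries sharing the spread, 30 with the 2 cythera females against all 6 males at 70%, and 56 with sex common to all 16 animals, a fit added after the data were seen. They were 0 without any 1 individual, where the lone animal of a sex is assumed to vary like the other sex. With a replicate block across both wing regions (voom, individual as a random effect) there were 3 calls, all higher in males, and none of them shared. MSTRG.20567 was called in 10 of 15 settings (FDR at most 0.233) and MSTRG.7324 in 5 of 15 (FDR at most 0.906).

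In the forewing and posterior hindwing, the 2 calls became 167 with DESeq2, 7 with no filter, 0 with 10 counts in every library (514 at that p), 5 with the newer fit and 0 with the replicate block (786), and they were 0 without any 1 individual. For the region term, the 7 calls became 115 with DESeq2, 60 with no filter, 13 with 10 counts in every library, 12 with robust dispersion and 0 with no replicate block (186), and 0 (without female 12) to 85 (without male 9) with individuals left out. Without female 10 there were 3 calls and without male 11 there were 11. With DESeq2, 40 of 115 terms were positive, and with no filter 35 of 60.

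At 50%, the 21 calls became 419 with DESeq2, 2 with 10 counts in every library, 77 with the newer fit, 32 with no subspecies term and 0 in cythera alone (946), and 3 (without male 7) to 35 (without male 4) with individuals left out. Only without male 4 were there more than 9. For the stage term, the 0 calls became 221 with DESeq2, 1 without female 1 and 211 without male 2, so individuals left out gave 0 to 211. Loci limited to females numbered 386, and to males 131, where up to 10 counts were allowed in the other sex, a limit added after the data were seen. The share of genes with all rosina males on the male side was 41% to 48% with 1 rosina male left out. Named genes were refitted only for the comparison they were named for, and the loci of the sex label check beyond those only at 50%. Among these, no direction reversed under any alternative that gave a value. The genes named after their values were seen and those with hand-given names were not refitted. The cause of these changes was not tested.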
